A study of Mus musculus with 19 samples.

Results

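Fat of new onset diabetic NOD mice treated with Power Mix (PM) was compared with fat of normoglycemic NOD mice (NOR) to find which transcripts still differed from normal after treatment. The comparison held 5 of the 19 arrays of the study, 3 of PM fat and 2 of NOR fat, chosen by the tissue and the treatment that their labels give. All mice were female NOD/LtJx, a strain whose own T cells destroy the insulin-producing beta cells. PM mice were diabetic when treated and received IL2.Ig, a mutant antagonist-type IL15.Ig and rapamycin. The labels of all 19 arrays also carry a protocol for streptozotocin, a beta cell toxin, which the methods describe for mice whose diabetes anti-TNF had reversed, and whether any fat array came from mice given it is not said. The fat arrays of new onset diabetic mice treated with alpha1 antitrypsin (AAT, 2 arrays) and of new onset diabetic mice whose titles name no treatment (DIA, 2 arrays) shared the estimate of the spread and are given beside PM and NOR. The methods also describe insulin therapy adjusted to blood glucose, and whether mice of the fat arrays received it is not said. The methods name a depot, epididymal white fat, for the insulin signalling experiment, whose fasted mice got insulin or saline before tissue was taken for blots and RNA, and do not tie the arrays to it. Age and the time between treatment and sampling are not given for the arrays in the sources used here, nor is it said that the arrays of a group came from different mice. P-values therefore measure only the spread between these arrays, which may be technical. No array of normoglycemic mice given Power Mix was analysed here, so what came from the drugs and what was left from diabetes cannot be told apart.

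Interleukin 2 sustains regulatory T cells, interleukin 15 sustains memory CD8 T cells and natural killer cells, and both signal through receptors that share the beta and gamma chains. Rapamycin binds the immunophilin FKBP12, and this complex blocks the kinase mTOR in mTOR complex 1, which insulin and nutrients activate and which promotes protein and lipid synthesis. In fat, insulin turns on glucose uptake and the enzymes of fatty acid synthesis and holds back the breakdown of triglyceride, so that the loss of insulin, its return and an mTOR inhibitor all bear on the same genes.

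The tissue label was borne out by adipocyte genes. Fabp4, the fatty acid carrier of fat cells, had signals of 127826, 240713 and 153548 on the PM arrays, against 339475 and 155628 on the NOR arrays. Adipoq, which encodes adiponectin, read 60264, 21025 and 43791 in PM fat, against 41908 and 48729 in NOR fat. Signals are the deposited linear values, in which every array has the same trimmed mean, and each gene is given by its brightest probe set on average. The tissue was taken whole, so fewer cells of a type and less RNA per cell cannot be told apart.

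No transcript passed an adjusted p of 0.05 between PM and NOR in limma (0 of 45037, 0%), and 1535 (3.41%) had an unadjusted p under 0.05, where the threshold alone allows 2251.85. With the thresholds of the study's methods, more than a 2-fold change with an unadjusted p no higher than 0.05, 1041 transcripts (2.31%) were higher and 364 (0.808%) were lower in PM, so that 74.1% were higher. After quantile normalization these counts were 1020 and 632, and 61.7% were higher. Counted once per gene, 313 of 18193 genes were higher (1.72%) and 128 were lower (0.704%), 441 in all, while 949 genes had at least 1 probe set past the thresholds. These counts fell below what the threshold on p allows, so each gene below is described by its arrays and its interval, and an adjusted p of 1 holds for every PM minus NOR difference given.

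The width of the intervals came from the arrays. Log2 signals correlated at 0.789 to 0.853 among PM arrays, at 0.812 between the NOR arrays and at 0.792 to 0.88 between PM and NOR arrays, so arrays of the same group were no more alike than arrays of different groups. Between NOR 1 and NOR 2, 39.4% of transcripts differed by more than 2-fold, and between PM arrays 29.9 to 42.8% did. Over all transcripts the standard error (SE) of a log2 difference had a median of 0.71. The ratio of the 3′ to the 5′ probe sets of actin, a measure of RNA integrity and amplification, was 5.93, 3.35 and 6.32 on PM arrays, 9.08 and 5.87 on AAT arrays, 15.2 and 15.5 on DIA arrays and 3.63 and 4.30 on NOR arrays. PM 1 and PM 3 lay above both NOR arrays, PM 2 lay below them, and DIA fat stood apart. With this ratio as a covariate 1657 transcripts were higher and 1323 were lower in PM than in NOR, and 55.6% of them were higher. Its part in the differences from DIA fat was not tested.

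**Figure D1:**
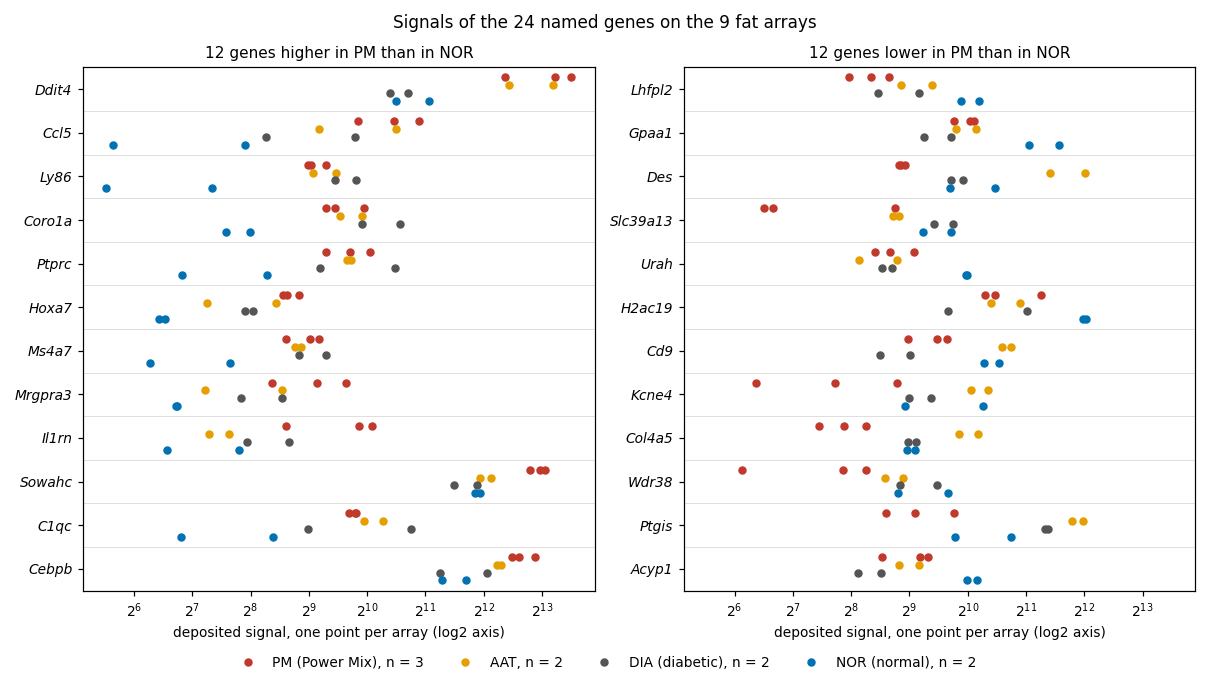
Deposited signals (log2 axis) of the 12 genes higher (left) and the 12 genes lower (right) in PM than in NOR fat with the smallest unadjusted p among those whose PM and NOR arrays did not overlap, 1 point per array, for PM, AAT, DIA and NOR from top to bottom within each gene. The PM points of Ddit4 (5243 to 11603) lie with those of AAT and above those of DIA and NOR, whereas for Ly86, Ms4a7 and C1qc the PM, AAT and DIA points lie above NOR, and the PM points of Des (452 to 488) lie below every other array.

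The gene with the smallest p was Ddit4, which encodes REDD1, a stress- and glucocorticoid-induced inhibitor of mTOR complex 1. Its signals were 11603, 5243 and 9502 in PM fat and 9347 and 5523 in AAT fat, against 1663 and 1337 in DIA fat and 2128 and 1445 in NOR fat. The PM and AAT arrays formed a high group that did not overlap the DIA and NOR arrays. Ddit4 was 4.75-fold higher in PM than in NOR (log2 difference 2.25, SE 0.38, 95% interval 1.41 to 3.08, unadjusted p = 8.94e-05). PM exceeded DIA by 2.48 (unadjusted p = 3.68e-05), while PM and AAT differed by 0.21 (unadjusted p = 0.587). The PM minus NOR difference of Ddit4 stayed between 1.91 and 2.86 and past the study's thresholds under all 22 alternatives run.

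Sowahc and Cebpb were the others of the 12 genes plotted as higher in PM than in NOR whose PM minus DIA difference had an unadjusted p under 0.01. Sowahc, which encodes an ankyrin repeat protein, read 8476, 7128 and 8029 in PM fat, 3912 and 4448 in AAT fat, 2882 and 3788 in DIA fat and 3679 and 3930 in NOR fat. It was high in PM fat alone, with no overlap with any other group. The PM minus NOR difference was 1.05 (SE 0.26, 95% interval 0.47 to 1.62), that from DIA was 1.25 (unadjusted p = 0.00053) and that from AAT was 0.91 (unadjusted p = 0.00487). Without NOR 1 or PM 1 the difference from NOR was 1.00 or 0.99 and no longer past the 2-fold threshold. Cebpb, a transcription factor of early adipocyte differentiation and of inflammation, read 6234, 7495 and 5759 in PM fat, 4777 and 5028 in AAT fat, 2427 and 4265 in DIA fat and 3310 and 2507 in NOR fat. All PM arrays lay above all others (PM minus NOR 1.16, SE 0.31), and without NOR 2 the difference was 0.96 and not past the 2-fold threshold.

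The 250 bases before the start sites of these 3 genes are shown because these, of the 12 genes plotted as higher in PM than in NOR, were also higher than in DIA with an unadjusted p under 0.01. They are RefSeq sequences of build GRCm38.p6, read 5′ to 3′ on the gene's strand: Ddit4 at chr10:59951771-59952020 (minus strand), Sowahc at chr10:59221672-59221921 (plus strand) and Cebpb at chr2:167688665-167688914 (plus strand). Capitals mark CCAAT boxes, searched as CCAAT on both strands, so that a match on the other strand reads ATTGG.
Ddit4: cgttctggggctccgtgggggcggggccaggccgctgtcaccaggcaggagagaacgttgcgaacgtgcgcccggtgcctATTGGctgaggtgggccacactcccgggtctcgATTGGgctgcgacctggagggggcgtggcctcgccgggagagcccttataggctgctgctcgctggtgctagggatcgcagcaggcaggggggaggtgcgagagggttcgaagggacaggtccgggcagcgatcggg
Sowahc: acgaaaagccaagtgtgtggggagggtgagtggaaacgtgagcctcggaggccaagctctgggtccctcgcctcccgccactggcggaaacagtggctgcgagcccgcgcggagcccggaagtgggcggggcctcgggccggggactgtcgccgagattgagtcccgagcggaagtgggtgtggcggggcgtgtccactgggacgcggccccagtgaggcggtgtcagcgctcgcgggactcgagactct
Cebpb: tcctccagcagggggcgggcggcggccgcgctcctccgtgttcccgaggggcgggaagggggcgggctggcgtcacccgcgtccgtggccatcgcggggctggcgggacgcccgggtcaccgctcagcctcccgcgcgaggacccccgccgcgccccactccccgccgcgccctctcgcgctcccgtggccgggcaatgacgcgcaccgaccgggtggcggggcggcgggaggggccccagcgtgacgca
The Ddit4 window held 2 CCAAT boxes, starting 170 and 137 bases before the start, and the other two windows held none. Over all 32851 RefSeq windows of this length, 33.8% held a CCAAT box. The E-box CACGTG (6.02% of all windows), searched on both strands, had no match in these windows. No matches overlapped, and a match or its absence describes only the letters of the window. Windows were found for 20 of the 24 named genes.

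Ddit4 belongs to a list of 16 glucocorticoid-responsive genes, of which 3 were past the study's thresholds and higher (Ddit4, Zbtb16 and Tsc22d3) and 0 were lower, against 1.72% and 0.704% of all genes. In this list 15 of 16 genes had a PM minus NOR difference above 0, and in 7 of 16 every PM array lay above both NOR arrays (43.8%, against 7.52% of all genes). The median difference was 0.71, beside -0.01 over all genes, and lay between 0.54 (without NOR 2) and 1.09 (without NOR 1). Zbtb16, which encodes the zinc finger protein PLZF, read 6712, 1751 and 3631 in PM fat, 7789 and 2880 in AAT fat, 2591 and 3601 in DIA fat and 1382 and 1388 in NOR fat. Tsc22d3, the glucocorticoid-induced leucine zipper GILZ, read 7975, 5497 and 7396 in PM fat, 10405 and 10493 in AAT fat, 1979 and 7092 in DIA fat and 4085 and 2483 in NOR fat. For both genes the PM and AAT arrays lay above NOR, as did both DIA arrays for Zbtb16 and DIA 2 for Tsc22d3. PM minus DIA was 0.19 for Zbtb16 (unadjusted p = 0.719) and 0.87 for Tsc22d3 (unadjusted p = 0.0847). Neither gene passed the thresholds without NOR 2 (1.34 and 0.75), PM 1 (0.86 and 1.00) or PM 3 (1.31 and 1.06), nor did Zbtb16 without NOR 1 (1.33). Cebpd, a relative of Cebpb, differed little from NOR (0.66, SE 0.29) and by 2.19 from DIA (unadjusted p = 7.96e-06). The AAT minus NOR median of the list was 0.56 and the DIA minus NOR median was -0.26, and these medians share the NOR arrays with that of PM. Leukocytes as well as adipocytes respond to glucocorticoids, and which cells carried these differences was not tested.

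Immediate early genes, which cells switch on within minutes of a stimulus or of handling, had a median difference of 0.46 from NOR, which was -0.03 without NOR 1 and 0.05 with the actin ratio as a covariate. Of 25 genes 21 had differences above 0 (48.9% of all genes had), 3 were past the thresholds and higher (Klf2, Maff and Egr2, against 1.72% of all genes), and 0 were lower. Maff, a small MAF transcription factor, read 454, 1146 and 712 in PM fat, 772 and 546 in AAT fat, 92.5 and 142 in DIA fat and 116 and 420 in NOR fat. Without NOR 1 its difference was 0.77 instead of 1.70, and those of Klf2 and Egr2 were 0.68 and 0.63 instead of 1.46 and 2.08, so that none of them was past the thresholds. Maff was also not past the thresholds without PM 2 (1.36), nor was Egr2 without AAT 1 or any PM array (1.93 to 2.21). The other probe set of Egr2 read the other way (-1.44). Egr1, a factor induced by insulin and other growth signals, read 17682, 6016 and 14833 in PM fat, 11184 and 5425 in AAT fat, 640 and 1541 in DIA fat and 7993 and 8115 in NOR fat. PM arrays lay on both sides of the NOR arrays (0.53, 95% interval -0.59 to 1.65), and the PM minus DIA difference was 3.55 (unadjusted p = 1.97e-05). Zfp36, which encodes an mRNA-destabilizing protein, likewise differed from DIA by 2.36 (unadjusted p = 4.94e-06) and from NOR by 0.70. In the PM minus DIA comparison 8 of the 25 genes were past the thresholds and higher, against 4.09% of all genes.

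Of the 23 mTOR pathway genes measured, 1 was past the thresholds and higher (Ddit4) and 1 was lower (Tsc2). Each was 4.35% of the list, against 1.72% and 0.704% of all genes. Every PM array lay above NOR in 17.4% of the list and below NOR in 17.4%, against 7.52% and 6.95% of all genes. The median difference of the list was -0.16 (-0.18 to -0.04 with an array left out). Tsc2, which encodes tuberin, an inhibitor of mTOR complex 1, read 448, 203 and 386 in PM fat and 793 and 649 in NOR fat (-1.13, SE 0.46), and was not past the thresholds without NOR 1 (-0.99), NOR 2 (-1.28) or PM 2 (-0.79). Mtor itself read 1501, 1075 and 1538 in PM fat and 1496 and 1785 in NOR fat, and its interval, -0.91 to 0.37, did not reach a 2-fold change. Intervals within 2-fold were also found at the brightest probe sets of the complex 1 subunit gene Rptor (-0.95 to 0.42) and of Tsc1 (-0.56 to 0.68). The same held for Eif4ebp2 (-0.66 to 0.63), a repressor of cap-dependent translation that mTOR inactivates. Over all their probe sets, however, the differences of Rptor ranged between -0.26 and 1.94 and those of Eif4ebp2 between -1.5 and 1.88. Fkbp1a, which encodes the rapamycin receptor FKBP12, read 9052, 11897 and 11047 in PM fat, against 10890 and 15615 in NOR fat (-0.30, SE 0.33). Eif4ebp1, the fat-enriched relative of Eif4ebp2, was lower on every PM array (16423, 17041 and 15961) than on the NOR arrays (20477 and 22011), a difference of -0.37 within an interval of -1.06 to 0.32.

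Lpin1 and Grb10, a pair of mTOR-linked genes, lay above NOR on every PM array without passing the thresholds at their brightest probe sets. Lpin1, a phosphatidate phosphatase of triglyceride synthesis whose entry into the nucleus mTOR controls, read 11247, 6431 and 7654 in PM fat, 9275 and 5118 in AAT fat, 5787 and 5697 in DIA fat and 4548 and 3821 in NOR fat (0.98, SE 0.34, unadjusted p = 0.0148), and its other probe set, at 1.03 (unadjusted p = 0.0121), was past the thresholds. Grb10, an adaptor that restrains insulin signalling and is stabilized by mTOR, read 4205, 5061 and 4704 in PM fat, 3255 and 2875 in AAT fat, 3387 and 2672 in DIA fat and 3135 and 3446 in NOR fat. Its PM arrays lay above all 6 other fat arrays, with differences of 0.50 from NOR (unadjusted p = 0.0782), 0.63 from DIA (unadjusted p = 0.0326) and 0.60 from AAT (unadjusted p = 0.0386).

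None of the 17 genes of the interleukin 2 and interleukin 15 system was past the thresholds at its brightest probe set, and the median difference was 0.06 (-0.15 to 0.35 with an array left out). Dimmer probe sets of 3 of these genes were past them and higher, Il15ra by 2.84, Stat5a by 2.58 and Socs2 by 2.06, where the brightest gave 0.39, 0.18 and -0.18. That of Il15ra read 1041, 415 and 644 in PM fat, against 81.0 and 103 in NOR fat. For these genes the direction or size thus depended on the probe set. The receptor gene Il2ra, the high-affinity alpha chain, read 95.8, 340 and 211 in PM fat and 211 and 72.6 in NOR fat. Il2rb, the shared beta chain, read 137, 528 and 388 in PM fat, 69.8 and 251 in AAT fat, 106 and 55.2 in DIA fat and 300 and 344 in NOR fat. At the brightest probe sets it was the only gene of this list past the thresholds between PM and DIA (1.99, unadjusted p = 0.0244). Over all genes 4.09% were past them and higher. The difference of Il2rb from NOR was -0.08 (SE 0.77). Foxp3, the defining factor of regulatory T cells, read 136, 207 and 203 in PM fat, against 294 and 68.1 in NOR fat, and its interval of -1.39 to 2.06 left room for a change of more than 2-fold either way. The brightest probe set of Il15ra, the interleukin 15 receptor alpha chain, read 625, 747 and 557 in PM fat and 694 and 344 in NOR fat (0.39, SE 0.46). Cish, a feedback inhibitor that STAT5 induces downstream of these receptors, was lower on all PM arrays (628, 1112 and 844) than on the NOR arrays (1406 and 1166), with a difference of -0.61 (SE 0.37, unadjusted p = 0.124). AAT and DIA fat read 546 to 964 for Cish, so these groups too lay below NOR.

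Ccl5, a chemokine that recruits T cells and monocytes, had the largest PM minus NOR difference of the 24 genes plotted. Its signals were 921, 1902 and 1404 in PM fat, 580 and 1444 in AAT fat, 308 and 887 in DIA fat and 50.1 and 239 in NOR fat. The PM arrays lay above every DIA and NOR array, with differences of 3.63 from NOR (SE 0.69, 95% interval 2.12 to 5.13, unadjusted p = 0.000231) and 1.37 from DIA (unadjusted p = 0.0708). Il1rn, the natural antagonist of the interleukin 1 receptor, read 389, 1087 and 932 in PM fat, 197 and 157 in AAT fat, 403 and 246 in DIA fat and 94.4 and 222 in NOR fat. It differed from NOR by 2.34 (SE 0.58) and from AAT by 2.06 (unadjusted p = 0.0044), and the 3 probe sets of Il1rn ranged between -0.17 and 2.34. Of the 22 inflammatory cytokine and chemokine genes, Ccl5 and Il1rn were the 2 past the thresholds against NOR (9.09%, against 1.72% of all genes higher). Il1rn and the neutrophil chemokine gene Cxcl1 (1.09, unadjusted p = 0.0106) were the 2 that were past them and higher against AAT, where 2.4% of all genes were.

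For Ptprc, Ly86 and Coro1a, genes of leukocytes, every PM, AAT and DIA array lay above both NOR arrays. Ptprc, the common leukocyte antigen CD45, read 1057, 837 and 630 in PM fat, 804 and 845 in AAT fat, 583 and 1430 in DIA fat and 311 and 113 in NOR fat (PM minus NOR 2.14, PM minus DIA -0.15). Ly86, a partner of a Toll-like receptor relative on B cells and myeloid cells, read 527, 629 and 507 in PM fat, 704 and 536 in AAT fat, 700 and 898 in DIA fat and 46.1 and 162 in NOR fat (PM minus NOR 2.67, PM minus DIA -0.52). Coro1a, an actin regulator of leukocytes, read 629, 984 and 695 in PM fat, against 968 and 1510 in DIA fat and 253 and 191 in NOR fat. In each of these genes the PM arrays lay among or below the DIA arrays. For all genes plotted, the lack of overlap between PM and NOR arrays was a condition of their choice and is not a result. The second probe set of Ptprc read the other way (-1.61), and those of Coro1a ranged between -0.55 and 1.78.

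In the macrophage list 3 of 26 genes were past the thresholds and higher (Ms4a7, C1qc and C1qb) and 1 was lower (Cd163), against 1.72% and 0.704% of all genes, and the median difference was 0.48 (0.29 without PM 2). In 8 of the 26 genes (30.8%, against 7.52% of all genes) all PM arrays lay above NOR. C1qc, a chain of the complement component C1q that tissue macrophages make, read 827, 890 and 897 in PM fat, 1241 and 991 in AAT fat, 509 and 1725 in DIA fat and 112 and 334 in NOR fat (2.17, SE 0.55). Ms4a7, a membrane protein of macrophages, read 389, 516 and 579 in PM fat, 434 and 464 in AAT fat, 624 and 456 in DIA fat and 77.5 and 200 in NOR fat (1.97, SE 0.48). Adgre1, which encodes the macrophage marker F4/80, did not share this pattern, with 576, 716 and 645 in PM fat, against 899 and 588 in NOR fat. Cd163, a scavenger receptor of resident macrophages, read 138, 57.0 and 55.5 in PM fat, 208 and 124 in AAT fat, 2408 and 80.1 in DIA fat and 543 and 522 in NOR fat (-2.81, SE 1.11). C1qb was not past the thresholds without NOR 1 (0.68) or PM 1 (1.01). Nor was Cd163 without either NOR array, PM 2 or PM 3 (-2.84 to -2.58). The summed signal of the 26 markers was 22634 to 27509 in PM fat, 25974 to 34234 in AAT fat, 31891 to 53477 in DIA fat and 16343 to 17648 in NOR fat. PM fat lay above NOR and below DIA in this sum.

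MHC class II molecules present antigen to CD4 T cells. Of 9 genes of this pathway, 2 were past the thresholds and higher (against 1.72% of all genes), 5 (55.6%, against 7.52%) had all PM arrays above NOR, and the median difference was 0.79, beside 0.94 for AAT minus NOR and 0.47 for DIA minus NOR. H2-Aa read 3958, 4988 and 4391 in PM fat, 3018 and 4082 in AAT fat, 1616 and 3897 in DIA fat and 1451 and 2110 in NOR fat (1.34, SE 0.37, 95% interval 0.53 to 2.15). H2-Eb1 read 3361, 4859 and 2794 in PM fat, against 1643 and 1401 in NOR fat (1.24, SE 0.42), and was 1.12 without NOR 2 and then not past the thresholds. All PM arrays exceeded NOR for both class II chains.

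Of the 19 B cell and plasma cell genes, 3 were past the thresholds and higher (Mzb1, Jchain and Cd79a) and 0 were lower, against 1.72% and 0.704% of all genes, with a median of 0.59 that was 0.12 without NOR 2. Jchain, which links the subunits of IgA and IgM, read 4620, 2065 and 1925 in PM fat, 9846 and 5310 in AAT fat, 350 and 2557 in DIA fat and 802 and 419 in NOR fat (2.19, SE 0.70). Mzb1, a chaperone of antibody secretion, read 696, 780 and 620 in PM fat, 544 and 1032 in AAT fat, 288 and 429 in DIA fat and 140 and 325 in NOR fat (1.70, SE 0.47). Both treated groups lay above NOR in these plasma cell genes, and so did DIA 2, which exceeded PM 2 and PM 3 for Jchain. Dimmer probe sets of 2 further genes of the list, Ighm (2.86 to 4.72) and Sdc1 (2.24), were past the thresholds and higher. Jchain and Mzb1 each failed the thresholds without 1 NOR array, Mzb1 without NOR 1 (1.10) and Jchain without NOR 2 (1.72). Cd79a, a chain of the B cell receptor, was not past them without NOR 1 (1.39), PM 1 (2.09) or PM 2 (1.95).

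The T cell and NK cell list had 1 of 20 genes past the thresholds and higher, Klrd1 (5%, against 1.72% of all genes), and a median of 0.33. Klrd1, which encodes CD94 of natural killer cells, read 401, 459 and 318 in PM fat, 186 and 270 in AAT fat, 163 and 151 in DIA fat and 126 and 114 in NOR fat (1.70, SE 0.52; PM minus DIA 1.31, unadjusted p = 0.0267). Its PM arrays lay above all other fat arrays. Cd3e, the T cell receptor chain, read 59.0, 149 and 66.7 in PM fat and 112 and 36.3 in NOR fat, and Cd8a read 551, 594 and 473 in PM fat and 425 and 232 in NOR fat (0.78, SE 0.48). The median of this list turned to -0.21 without NOR 2 and was 0.85 without NOR 1. Csf3r, the receptor for the neutrophil growth factor G-CSF, was the 1 gene of 14 in the neutrophil list past the thresholds (7.14%, against 1.72% of all genes higher). It read 333, 567 and 261 in PM fat and 124 and 54.7 in NOR fat (2.15, SE 0.61).

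Of 22 interferon-stimulated genes 18 had differences above 0 (48.9% of all genes had), 9 (40.9%, against 7.52%) had all PM arrays above NOR, and 2 were past the thresholds and higher (Oas2 and Rtp4, against 1.72%). Oas2, a sensor of double-stranded RNA, read 444, 527 and 435 in PM fat, 582 and 606 in AAT fat, 405 and 946 in DIA fat and 208 and 95.7 in NOR fat (1.73, SE 0.49), and was not past the thresholds without NOR 2 (1.17). The median of this list was 0.47 in PM, 0.55 in AAT and 0.21 in DIA, each relative to the same NOR arrays. Rtp4, a chaperone of receptors, was not past the thresholds without NOR 1 (0.68), PM 2 (0.79) or PM 3 (0.95). Differences of Oas2 and Rtp4 between PM and DIA were -0.41 and 0.34.

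TNF, on which the study centred, was among the genes near background. Tnf read 72.9, 48.7 and 32.4 in PM fat, 20.9 and 40.2 in AAT fat, 25.6 and 100 in DIA fat and 79.3 and 31.7 in NOR fat. Arrays of the 4 groups overlapped throughout (-0.04, SE 1.02), and Tnf was singled out after its values were seen. Of 20 genes of TNF and NF-kB signalling 2 were past the thresholds and higher, Ltb and Nfkb2 (10%, against 1.72% of all genes). In this list 0 were lower, against 0.704% of all genes. In 4 of 20 (20%, against 7.52% of all genes) every PM array lay above NOR, and the median difference was 0.03. Nfkb2 was not past the thresholds without NOR 1 (0.45) or PM 2 (1.47), and its other probe set read the other way (-0.94). Ltb, the membrane-bound lymphotoxin of lymphocytes, read 152, 284 and 127 in PM fat, 277 and 322 in AAT fat, 142 and 368 in DIA fat and 13.7 and 41.6 in NOR fat (2.88, SE 0.78). Nfkbia, the inhibitor of NF-kB that NF-kB itself induces, read 29810, 18339 and 30710 in PM fat, against 13432 and 12965 in NOR fat (0.96, SE 0.41).

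**Figure D2:**
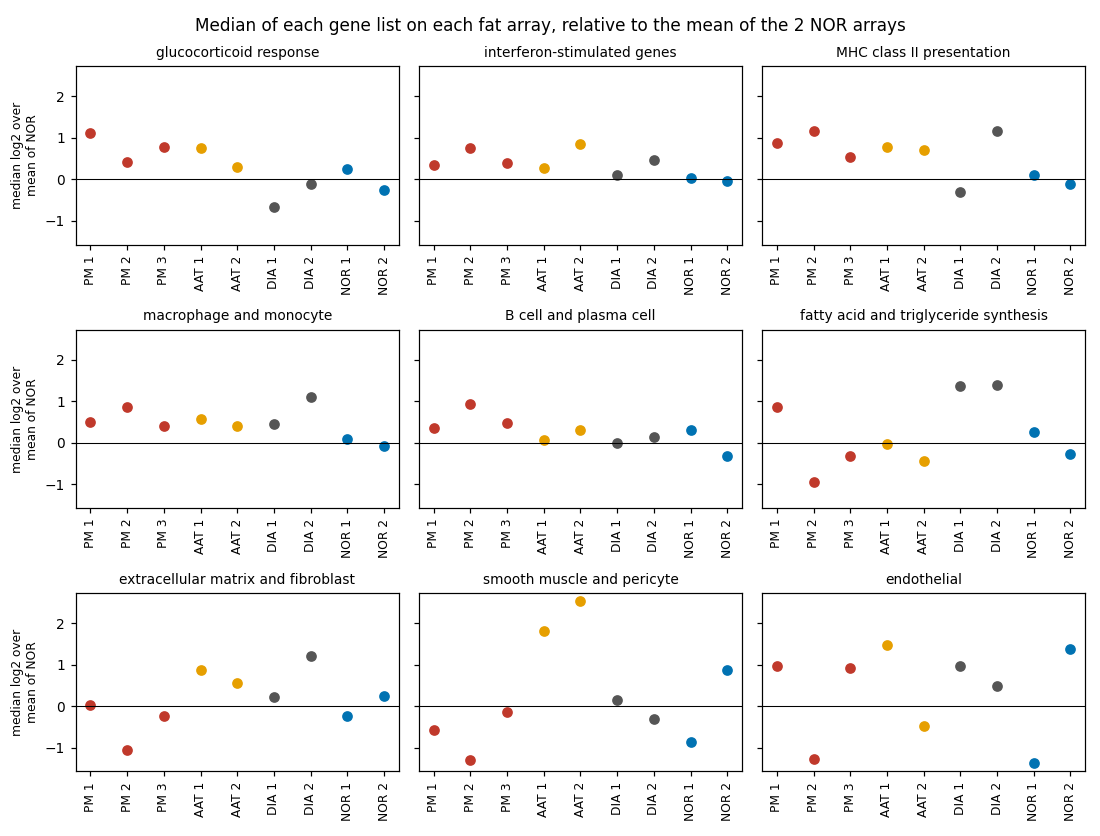
Median over the genes of 9 lists on each fat array, as log2 over the mean of the NOR arrays, with arrays ordered PM, AAT, DIA and NOR. The PM arrays lie above both NOR arrays for the glucocorticoid list (0.42 to 1.11), interferon-stimulated genes, MHC class II and macrophage genes, whereas in the endothelial list NOR 1 (-1.38) and PM 2 (-1.28) lie far below NOR 2 (1.38) and the other PM arrays.

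Among the genes lower in PM fat, those of vessel walls and matrix were set against a wide spread of these tissues between arrays. Des, the intermediate filament desmin of muscle and pericytes, read 452, 488 and 462 in PM fat, 2727 and 4151 in AAT fat, 844 and 971 in DIA fat and 834 and 1423 in NOR fat. Its PM arrays lay below every other fat array, by 1.22 on the log2 scale from NOR (difference -1.22, SE 0.33, unadjusted p = 0.00328), 0.96 from DIA (-0.96, unadjusted p = 0.0141) and 2.85 from AAT (-2.85, unadjusted p = 2.43e-06, adjusted p = 0.11). Without NOR 2 the difference from NOR was -0.84 and not past the thresholds. Kcne4, a subunit of potassium channels, read 210, 82.5 and 439 in PM fat, 1306 and 1067 in AAT fat, 660 and 511 in DIA fat and 486 and 1230 in NOR fat (-1.97, SE 0.63), and was not past the thresholds without NOR 2 (-1.30). The 15 smooth muscle and pericyte markers had a median of -0.85, with 14 below 0. This median was 0.04 without NOR 2 and -1.61 without NOR 1. Of these markers 2 were past the thresholds and lower, Des and Myh11 (13.3%, against 0.704% of all genes). Myh11 was not past them without NOR 2 (-0.39) or PM 2 (-1.28).

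AAT fat held the highest signals of these markers. In PM minus AAT, 10 of the 15 were past the thresholds and lower, against 2.34% of all genes, with a median of -2.85. Acta2, the smooth muscle actin, read 4140, 2486 and 6840 in PM fat, 25799 and 36470 in AAT fat, 8066 and 5911 in DIA fat and 3823 and 14637 in NOR fat. Myh11, the smooth muscle myosin, read 472, 103 and 379 in PM fat and 6346 and 11589 in AAT fat, against 849 and 617 in DIA fat and 346 and 3045 in NOR fat. The AAT arrays stood far above all others, and the summed signal of the 15 markers was 11292 to 30725 in PM fat, 108125 to 149266 in AAT fat, 28475 to 36631 in DIA fat and 16414 to 57409 in NOR fat. Whether the amount of vessel or muscle in the sampled tissue set these values was not tested.

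Matrix genes were lower in PM than in DIA and AAT fat and closer to NOR. Of 29 genes of the extracellular matrix and fibroblasts, 0 were past the thresholds between PM and NOR, 24 had differences below 0, 4 (13.8%) had all PM arrays below NOR (against 6.95% of all genes), and the median was -0.40 (-0.82 without NOR 1 and -0.14 without NOR 2). In PM minus DIA and PM minus AAT 13 of the 29 were past the thresholds and lower, against 3.09% and 2.34% of all genes, and 0 were higher. Loxl1, a collagen and elastin cross-linking enzyme, read 568, 169 and 548 in PM fat, 1619 and 1574 in AAT fat, 1562 and 1739 in DIA fat and 617 and 847 in NOR fat. PM arrays lay below all others, by a difference of -0.95 from NOR (SE 0.48), -2.14 from DIA (unadjusted p = 0.00091) and -2.09 from AAT (unadjusted p = 0.00107). Col1a2, a chain of type I collagen, read 2370, 1360 and 1824 in PM fat, 5608 and 4308 in AAT fat, 2527 and 9827 in DIA fat and 2705 and 3280 in NOR fat (-0.72 from NOR, -1.47 from DIA).

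Ptgis and Col4a5 were also lowest in PM fat and highest in AAT fat, and in Col4a5 DIA and NOR fat were alike (DIA minus NOR 0.03). Ptgis, the prostacyclin synthase of vessel walls and stroma, read 547, 388 and 866 in PM fat, 3546 and 4028 in AAT fat, 2663 and 2572 in DIA fat and 884 and 1708 in NOR fat. The differences were -1.11 from NOR (SE 0.38), -2.20 from DIA (unadjusted p = 0.000112) and -2.73 from AAT (unadjusted p = 1.56e-05, adjusted p = 0.141), and that from NOR was not past the thresholds without NOR 2 (-0.64) or PM 2 (-0.84). Col4a5, a basement membrane collagen, read 304, 174 and 234 in PM fat, 1152 and 921 in AAT fat, 505 and 556 in DIA fat and 495 and 544 in NOR fat (-1.17, SE 0.38), and was not past the thresholds without NOR 2 (-1.10) or PM 2 (-0.96). Msln, the mesothelial surface protein mesothelin, was the 1 of 10 mesothelial markers past the thresholds (10%, against 0.704% of all genes lower). It read 66.5, 37.9 and 96.2 in PM fat, 804 and 280 in AAT fat, 379 and 819 in DIA fat and 381 and 210 in NOR fat. PM fat was lower than every other group in Msln, by -2.18 from NOR (SE 0.68), -3.16 from DIA (unadjusted p = 0.000622) and -2.93 from AAT (unadjusted p = 0.00111). Without NOR 1 its difference from NOR (-1.75) was not past the thresholds.

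The remaining lower genes, none of which is in a list, differed in how AAT and DIA fat read. Gpaa1, H2ac19, Urah, Acyp1 and Lhfpl2 were lower than NOR in PM, AAT and DIA fat. Gpaa1, a subunit of the enzyme that attaches proteins to their GPI anchor, read 1109, 1053 and 871 in PM fat, 892 and 1133 in AAT fat, 835 and 608 in DIA fat and 2124 and 3033 in NOR fat (-1.34, SE 0.31, unadjusted p = 0.0011). Lhfpl2, a tetraspan membrane protein, read 400, 248 and 324 in PM fat, 461 and 672 in AAT fat, 354 and 572 in DIA fat and 1169 and 943 in NOR fat (-1.72, SE 0.40). On every PM array Slc39a13 and Wdr38 lay below the DIA and NOR arrays, and Wdr38 (-1.81 from NOR) was not past the thresholds without NOR 1 (-1.38), nor was Acyp1 without NOR 2 (-0.98) or PM 2 (-0.82). Slc39a13, which encodes the zinc transporter ZIP13, read 91.1, 431 and 101 in PM fat, 420 and 453 in AAT fat, 855 and 683 in DIA fat and 835 and 598 in NOR fat (-2.16 from NOR, SE 0.61; -2.27 from DIA, unadjusted p = 0.00325). The other probe set of Urah (2.27) and of Wdr38 (2.23) read the other way. Over all probe sets the differences ranged between -1.34 and -0.05 for Gpaa1 and between -1.72 and -0.14 for Lhfpl2.

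Cd9, a tetraspanin of exosomes and many cell surfaces, was lower in PM and DIA fat than in AAT and NOR fat, with 713, 797 and 506 in PM fat, 1717 and 1546 in AAT fat, 360 and 516 in DIA fat and 1237 and 1484 in NOR fat (-1.04 from NOR, SE 0.33; -1.30 from AAT, unadjusted p = 0.00206). Without NOR 2 or PM 3 the difference from NOR was -0.91 or -0.85 and not past the thresholds. Of the higher genes not yet described, Hoxa7, a homeobox factor, read 393, 456 and 378 in PM fat, 345 and 152 in AAT fat, 239 and 265 in DIA fat and 92.2 and 86.5 in NOR fat (2.19, SE 0.53). Mrgpra3, an itch receptor of sensory neurons, read 332, 796 and 565 in PM fat, against 105 and 107 in NOR fat (2.32, SE 0.58). That all PM arrays lay above NOR in both genes was a condition of their choice.

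The genes of fatty acid and triglyceride synthesis, which insulin turns on, had a median near NOR in PM fat and below DIA, while single genes varied. Of 23 genes 0 were past the thresholds against NOR in either direction, and the median difference was -0.15. Against DIA 12 of 23 were past the thresholds and lower (background 3.09%), 0 were higher, and the median was -1.55. The DIA minus NOR median was 1.40 and that of AAT minus NOR was -0.52, from the same NOR arrays. Acly, which makes acetyl-CoA for fatty acid synthesis, read 8379, 2045 and 3092 in PM fat, 4222 and 3242 in AAT fat, 13867 and 17252 in DIA fat and 4414 and 3151 in NOR fat. Its difference from NOR was 0.01 (95% interval -1.06 to 1.08) and that from DIA was -2.04 (unadjusted p = 0.00138, adjusted p = 0.337). Scd2, a fatty acid desaturase, read 528, 325 and 456 in PM fat, 941 and 1285 in AAT fat, 1530 and 4864 in DIA fat and 519 and 614 in NOR fat, and was the gene of this list with the smallest p against DIA (-2.67, unadjusted p = 9.39e-05). Srebf1, the factor SREBP1 that drives these enzymes, differed by -0.15 from NOR (SE 0.45) and -1.55 from DIA (unadjusted p = 0.00525). Acly, Scd2 and Srebf1 were singled out after their values were seen. Scd1, a further desaturase and the gene with the smallest p against NOR, read 91843, 12924 and 72682 in PM fat. In NOR fat it read 123691 and 85512, a difference of -1.22 (95% interval -2.87 to 0.43). Pnpla3, next by p, differed by 0.79 (95% interval -0.33 to 1.91). Of the 23 differences from NOR 14 were below 0 and 9 were above.

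**Figure D3:**
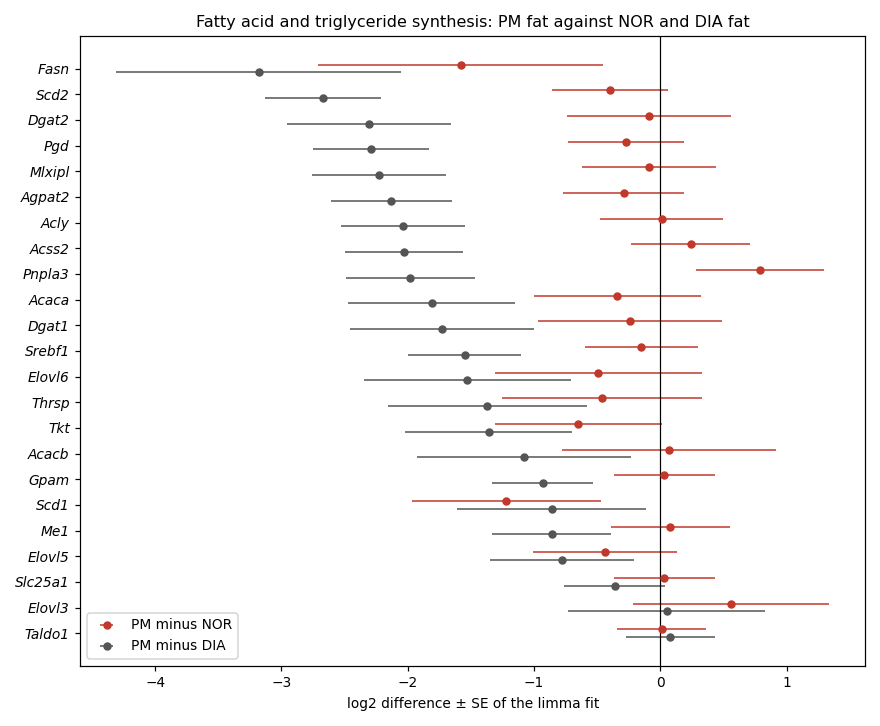
Log2 difference of PM from NOR (red) and of PM from DIA (grey) for 23 genes of fatty acid and triglyceride synthesis, with the SE of the limma fit as bars, ordered by the difference from DIA. The differences from NOR lie near 0 for most genes, while 12 of 23 differences from DIA are past the study's thresholds below 0, Fasn the lowest at -3.18.

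The PM arrays did not behave as a unit in this list. Fasn, the fatty acid synthase, read 36460, 1472 and 1824 in PM fat, 4596 and 5691 in AAT fat, 30725 and 56987 in DIA fat and 31130 and 6093 in NOR fat. PM 1 was at the level of the DIA arrays and of NOR 1, and PM 2 and PM 3 were the lowest of all 9. The difference from NOR was -1.58 with an interval of -4.06 to 0.90, which reaches past a 2-fold change on the lower side. Thrsp, an insulin-responsive regulator of lipogenesis, split the same way, with 38581, 6099 and 11719 in PM fat and 43196 and 8602 in NOR fat, as did Acaca, the acetyl-CoA carboxylase, with 20857, 3624 and 4324 in PM fat and 14869 and 5136 in NOR fat. The median of the list relative to NOR was 0.85 on PM 1, -0.94 on PM 2 and -0.31 on PM 3. Over the whole list the PM minus NOR median was -0.60 without PM 1 and 0.21 without NOR 1, so its sign rested on single arrays.

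Genes that insulin represses and fasting raises had a median of 0.11 from NOR (0.07 to 0.41 with an array left out). Of 16 genes of lipolysis and fasting 0 were past the thresholds against NOR and 5 were past them and higher against DIA (background 4.09%). Pdk4, which shuts off glucose oxidation in fasting, read 10756, 4467 and 9475 in PM fat, 10568 and 7964 in AAT fat, 1828 and 1732 in DIA fat and 4986 and 4492 in NOR fat. It differed by 0.70 from NOR (SE 0.37) and by 2.11 from DIA (unadjusted p = 0.000113). Klf15, a glucocorticoid-induced regulator of gluconeogenic and amino acid genes, read 1642, 2086 and 1816 in PM fat, 1061 and 1585 in AAT fat, 578 and 821 in DIA fat and 1065 and 974 in NOR fat (0.85 from NOR, SE 0.31; 1.42 from DIA, unadjusted p = 0.00067). In both genes DIA fat was low and PM fat was high. Etfdh, which feeds electrons of fatty acid oxidation into the respiratory chain, was the gene of the oxidation list with the smallest p, with 1486, 2593 and 1614 in PM fat, 495 and 552 in DIA fat and 1283 and 1337 in NOR fat (0.49, SE 0.34).

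Insulin signalling genes (18) and cholesterol genes (17) had 0 and 1 members past the thresholds at their brightest probe sets. The 1 was 5.88% of the cholesterol genes, against 1.72% of all genes higher. A dimmer probe set of Gsk3b, a kinase that insulin restrains, was past the thresholds and higher (2.08). Irs2, the insulin receptor substrate whose transcription insulin represses, read 1231, 534 and 567 in PM fat, against 178 and 619 in NOR fat (1.12, SE 0.65). Cyp51, an enzyme of sterol synthesis, was the cholesterol gene past them, with 327, 146 and 143 in PM fat, 296 and 80.5 in AAT fat, 466 and 462 in DIA fat and 33.7 and 100 in NOR fat (1.71, SE 0.77), but not without NOR 1 (0.92), PM 1 (1.32), PM 3 (1.91) or either DIA array (1.71). Both genes overlapped or nearly met NOR on their lowest PM array. Pparg, the master regulator of adipocytes, read 3544, 2507 and 2975 in PM fat, 1996 and 1717 in AAT fat, 927 and 1735 in DIA fat and 2151 and 2865 in NOR fat, a difference of 0.26 from NOR (95% interval -0.45 to 0.97) and 1.23 from DIA (unadjusted p = 0.0028).

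**Figure D4:**
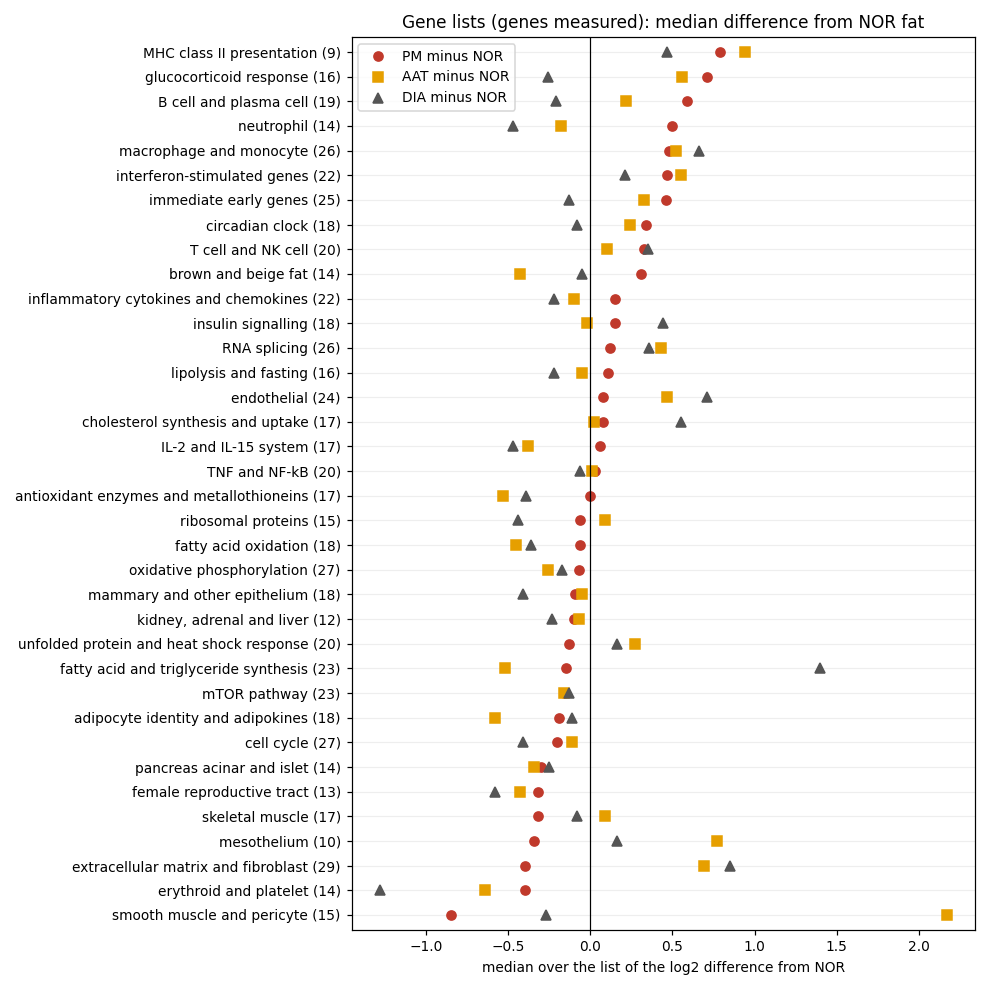
Median log2 difference from NOR over the measured genes of each of 36 lists, for PM (circles), AAT (squares) and DIA (triangles), ordered by the PM value. PM medians range between -0.85 (smooth muscle) and 0.79 (MHC class II), and the medians farthest from 0 are those of smooth muscle in AAT (2.17) and of fatty acid synthesis in DIA (1.40).

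Across all 36 lists no member was called at the adjusted threshold. In the plot of list medians some lists lay nearer to NOR in PM than in DIA and others lay farther. Nearer were, among others, fatty acid synthesis, cholesterol synthesis, ribosomal proteins and the interleukin 2 and 15 system. Farther were, among others, the glucocorticoid list (0.71 in PM, -0.26 in DIA), MHC class II (0.79, 0.47) and B cell genes (0.59, -0.21). Interferon-stimulated genes (0.47, 0.21) and smooth muscle markers (-0.85, -0.27) were also farther. The MHC class II median was -0.29 and 1.16 on the DIA arrays and 0.89, 1.18 and 0.54 on the PM arrays. In this list 0 of 9 genes were past the thresholds between PM and DIA. PM and DIA arrays also overlapped for interferon-stimulated genes and smooth muscle markers. Without NOR 2 the PM median was 0.12 for B cell genes and 0.04 for smooth muscle markers. The cholesterol median was -0.46 without PM 1. The lists of unfolded protein response, antioxidant enzymes, RNA splicing, oxidative phosphorylation, ribosomal proteins, circadian clock and brown fat had 0 genes past the thresholds at their brightest probe sets, while dimmer ones were past them and higher for Per3 (1.19) and Rora (1.10) of the clock, Sod1 (3.24) of the antioxidant enzymes, Srsf11 (2.06) of splicing and Dio2 (2.23) of brown fat, all chosen for this. In the cell cycle list 0 of 27 were higher and 2 were lower (7.41%, against 0.704% of all genes). Mki67, the proliferation antigen, read 89.3, 31.8 and 252 in PM fat and 257 and 449 in NOR fat (-1.92, SE 0.85), and Bub1b, a spindle checkpoint kinase, read 22.9, 14.5 and 7.49 in PM fat and 214 and 28.4 in NOR fat (-2.53, SE 1.11). Except for Mki67 on NOR 2 (array median 205), these signals lay below the median signal of their array. Neither gene was past the thresholds without NOR 1 (-2.33 for Mki67 and -1.07 for Bub1b), PM 2 (-1.18 and -2.58) or either DIA array. Nor was Mki67 without NOR 2 (-1.52), AAT 2 or PM 1, or Bub1b without PM 3 (-2.10). Of 20 unfolded protein and heat shock genes 5 were past the thresholds and lower against DIA and 2 against AAT, beside 3.09% and 2.34% of all genes. Hspa1b, the inducible HSP70, read 1272, 639 and 1281 in PM fat, 3758 and 3571 in AAT fat, 2019 and 2172 in DIA fat and 928 and 2008 in NOR fat (-1.85 from AAT, unadjusted p = 0.000584).

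The markers of endothelium varied more within PM and within NOR fat than between them. Their summed signal was 8985 to 49240 in PM fat and 9319 to 67337 in NOR fat, and the median difference of the 24 genes was 0.08, turning to -1.18 without NOR 1, 1.56 without NOR 2 and -0.73 with the actin ratio as a covariate. Pecam1, the endothelial antigen CD31, read 1134, 177 and 1248 in PM fat and 99.0 and 1736 in NOR fat. NOR 1 and PM 2 were the arrays low in endothelial genes, and leaving both out gave 1138 transcripts past the thresholds and higher and 257 lower. The other tissues a fat sample can carry had at most 1 marker past the thresholds each, all lower in PM: Acta1 of 17 skeletal muscle genes (-2.21, SE 0.84), Star of 13 reproductive tract genes (-1.44, SE 0.65), Cela3b of 14 pancreas genes (-1.01, SE 0.41), Epb42 of 14 erythroid and platelet genes (-2.41, SE 0.99), and none of the 18 mammary and other epithelial or the 12 kidney, adrenal and liver genes at their brightest probe sets (dimmer ones of Esr1, Pgr and Kap were past them and lower). These 4 calls were 5.88 to 7.69% of their lists, against 0.704% of all genes lower. Each of these 4 calls was lost without NOR 2 (-1.50 for Acta1, -1.49 for Star, -1.02 for Cela3b and -1.90 for Epb42), and Acta1, Cela3b and Epb42 also without PM 1, Epb42 without PM 3, Cela3b without NOR 1 or PM 2, and Star without any other array but PM 1.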

How the data were processed

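RNA of whole fat was extracted with Trizol and amplified, and Mouse 430 2.0 arrays were hybridized (labels and methods). The deposited values are linear signals (intensity) that the authors made with MAS5 (no version stated in these sources), scaled so that every array has the same 2% trimmed mean. RMA and rank products, which the methods name, were not run here. The log2 of the signal, with values under 1 raised to 1, was used, and 64 control probe sets were left out. Of 45037 probe sets 34945 name 1 gene, 932 several and 9160 none (18193 genes). limma 3.58.1 in R 4.3.3 fitted group means over the 9 fat arrays (eBayes with trend), with Benjamini-Hochberg adjustment over all probe sets. The contrasts PM minus DIA and PM minus AAT test the difference between the changes from NOR. Median log2 differences over all transcripts were 0.02 (PM minus NOR), 0.15 (PM minus DIA), 0.17 (PM minus AAT), -0.11 (DIA minus NOR) and -0.13 (AAT minus NOR), and changes are given as measured.

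Named genes were, in each direction, the 12 with the smallest p past the study's thresholds whose PM arrays did not overlap NOR and whose mean was at or above the median, the 4 smallest p and 2 highest means of each list described, and any member of the interleukin and mTOR lists. Others (Adipoq, Cd163, Cd3e, Adgre1, Pecam1, Tnf, Thrsp, Acaca and those said so in the text) were chosen after their values were seen. The members and the 36 gene lists (658 of 726 list genes matched) were chosen with earlier results of these data known. The fit was tested on simulated data. Alternatives were other samples, covariates, filters, normalizations, floors and each array left out. Array number, 2 or 3 per group, limits the precision. Whether the same replicate numbers in different groups mark related arrays could not be decided.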

Additional observations from a re-analysis of the deposited data

How the results depend on the processing

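Under the settings other than leaving out an array, 0 transcripts were called between PM and NOR. The counts past the study's thresholds moved by more than 1.5 times in these cases: 1657 higher and 1323 lower with the actin ratio as a covariate, 465 and 122 with transcripts under the 40th percentile of the mean left out, 180 and 52 under the 60th, 303 and 133 with 1 probe set per gene (the last 3 tested fewer transcripts), 632 lower after quantile normalization and 626 lower with array weights. For the first and the last 2 of these settings the cause was not tested. With the replicate number as a block 619 were higher and 354 lower and 0 were called. Deviations of same-numbered arrays of different groups correlated at -0.26 to 0.29, so their sign was not the same in all pairs of groups. Other pairs gave -0.29 to 0.26. In groups of 2 arrays the deviations mirror each other, so the second range was largely set by the first. The comparison of the ranges therefore cannot decide whether the numbers mark a pairing.

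Leaving out each array in turn gave 0 to 1 called, 695 to 1739 higher and 232 to 634 lower. The 1 call was Phf3 without NOR 2 (4.54, adjusted p = 0.0266, against 2.25 with all arrays). Without NOR 1, 1470 were higher and 232 lower, without NOR 2 1739 and 634, and without PM 1 1311 and 570. Of 4689 differences of genes under an alternative 4373 kept their side of the thresholds, 185 lost it, 130 gained it and 1 reversed (Esam, an endothelial adhesion protein, -1.06 with the actin covariate, 0.09 without). Of the 24 named genes 13 were past the thresholds under every alternative run. Most transcripts past the thresholds were dim: 763 of 1041 higher and 294 of 364 lower ones had means below the median of all transcripts.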
